A study of Homo sapiens with 12 samples.

Results

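The genes described here are 39 human genes for making and moving amino acids, 24 enzymes and 15 membrane carriers, out of 57500 genes in the deposited count table. They were chosen by symbol, as enzymes of serine, glycine, folate one-carbon, proline, asparagine, transamination, glutamine, transsulfuration and arginine metabolism and as amino acid carriers. For a symbol listed under several identifiers, the identifier with the most counts was taken. The libraries come from HCC1806 and MDA-MB-468, established cell lines of triple-negative breast cancer, which lacks estrogen and progesterone receptors and HER2 amplification. In each line, CRISPR-Cas9 with the guide sgPACT-2, directed at PRKRA, the gene of the double-stranded RNA binding protein PACT, was compared with a control guide. The control guides were sgC1 (HCC1806) and sgNTA (MDA-MB-468), so line and control guide cannot be told apart in any comparison between the lines. There were 12 libraries, 3 for each of the 4 combinations of line and guide. The labels give neither a time after editing nor whether clones or mixed cells were used. They do not say that the replicates were separate cultures, so the p-values measure the spread between these libraries, which may be technical.

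PACT binds double-stranded RNA and interacts with PKR, a kinase that phosphorylates the translation factor eIF2alpha, and the series title concerns this interaction. When eIF2alpha is phosphorylated, or when the kinase GCN2 senses uncharged tRNA, most translation slows while the transcription factor ATF4 is made. ATF4 pairs with C/EBP factors on promoter elements of many genes for amino acid synthesis, uptake and tRNA charging, of which ASNS is the textbook example. Tumour cells also depend on several of these genes in their own right. SLC7A5 with its heavy chain SLC3A2 carries leucine and other large neutral amino acids, SLC7A11 with the same heavy chain takes up cystine for glutathione, and PHGDH opens serine synthesis from glucose.

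The libraries held 18640633 to 44790741 counts, and the 39 genes took 0.678% to 0.794% of the counts of a library. Levels are given as CPM, counts divided by library size after TMM scaling. The targeted gene PRKRA had 78.6, 82.6 and 72.1 CPM in the HCC1806 control libraries and 37.5, 36.1 and 37.3 CPM with sgPACT-2. In MDA-MB-468 it had 41.1, 45.9 and 46.9 CPM with sgNTA and 39.2, 35.5 and 41.6 CPM with sgPACT-2. Its RNA fell by 1.06 on the log2 scale in HCC1806 (adjusted p = 0.00311, edgeR), and its log2 change of -0.19 in MDA-MB-468 did not pass (adjusted p = 0.383, edgeR). An edited gene can lose its protein without losing its RNA, so these counts do not measure PACT protein. The breast epithelial markers EPCAM, KRT8, KRT18, KRT19 and CDH1 were present in all groups. Of the receptors low in triple-negative tumours, PGR was near 0, ESR1 averaged 20.9 CPM in HCC1806 and 6.67 CPM in MDA-MB-468 controls, and ERBB2 averaged 194 and 139.8 CPM. Of 5 leukocyte markers 1, CD14, exceeded a mean of 1 CPM, with PTPRC, CD3E and LYZ near 0. The summed epithelial markers ranged from 1867 to 2114 CPM in control and from 1352 to 1602 CPM in sgPACT-2 libraries of HCC1806. In MDA-MB-468 they ranged from 3082 to 3349 and from 2786 to 3167 CPM. The summed leukocyte markers, nearly all CD14, ranged from 89.4 to 106 CPM with sgNTA and from 77.0 to 80.2 CPM with sgPACT-2 in MDA-MB-468, and reached at most 2.59 CPM in HCC1806. The part of these markers in the results below was not tested.

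In control cells, most genes of the set differed between the lines. Of the 39 genes, 24 were higher in MDA-MB-468 (34.2% of all 27029 genes tested) and 13 were lower than in HCC1806 (40.1%) at an adjusted p under 0.05 (edgeR). In either direction, 74.2% of all genes differed. The members' median log2 difference was 0.56, against -0.26 over all genes tested. Scaling by library size alone moved the median of all genes to -0.51 and gave 22 members higher and 14 lower. The shares of all genes given above belong to TMM scaling, so the 22 and 14 cannot be set against them. The genes that did not differ were CTH, with a log2 difference of 0.14, and ASL, with -0.19. CPM of the control libraries did not overlap for 37 members, with 23 higher (35.8% of all genes tested) and 14 lower (41.8%) in MDA-MB-468, against 77.7% of all genes in either direction. Of the 24 enzymes, 17 were higher without overlap in MDA-MB-468 and 6 lower, and of the 15 carriers 6 were higher and 8 lower.

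**Figure D1:**
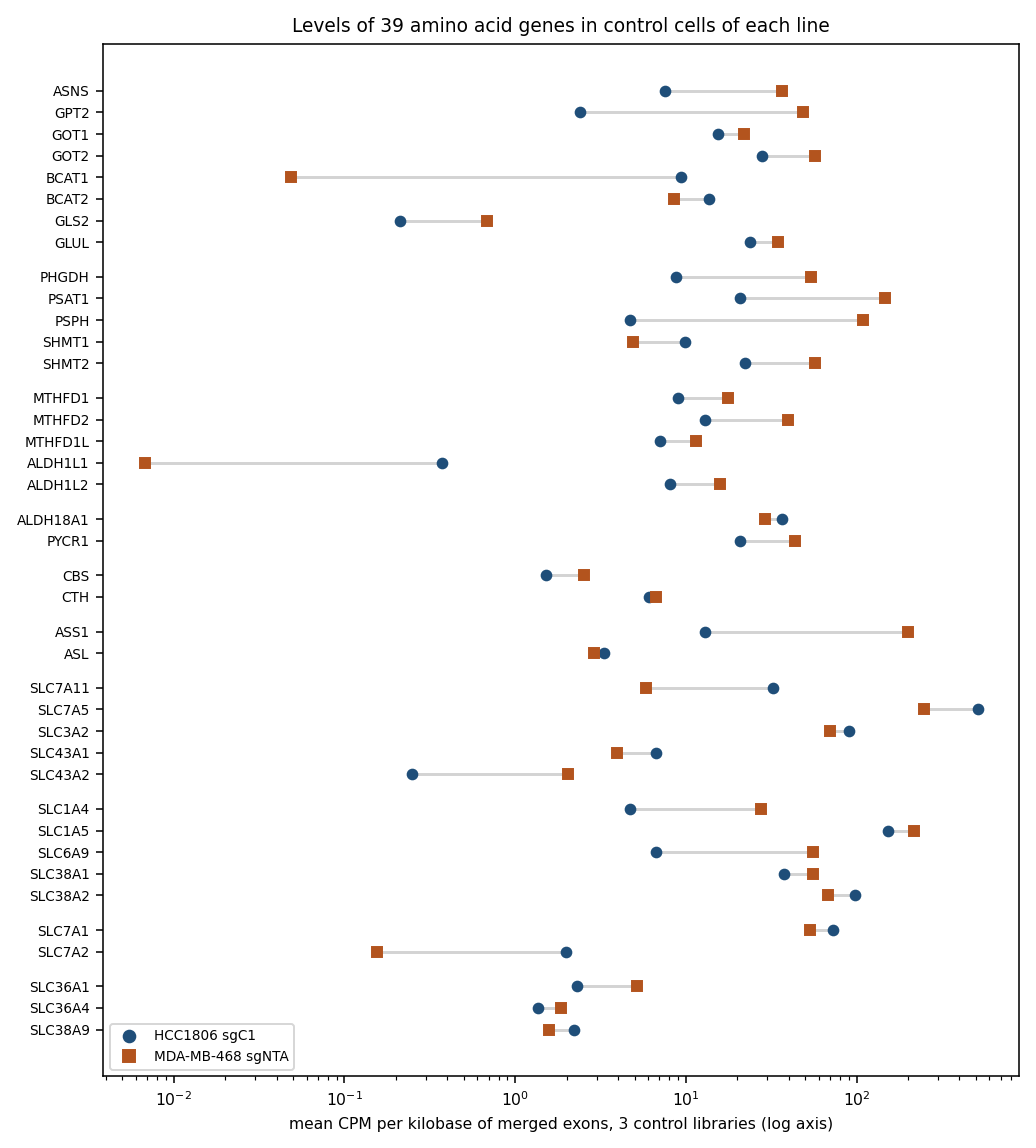
Mean level of each of the 39 genes in the 3 control libraries of HCC1806 (circles) and of MDA-MB-468 (squares), in CPM per kilobase of merged exons on a log axis, with genes grouped by role from enzymes (top) to carriers (bottom). SLC7A5 is the highest gene in both lines, at 511 and 249.7 CPM per kilobase, and BCAT1 and ALDH1L1 show the widest gaps, with HCC1806 higher.

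Per kilobase of exon, the highest members in HCC1806 control cells were SLC7A5 (511 CPM per kilobase), the glutamine carrier SLC1A5 (152), the small neutral amino acid carrier SLC38A2 (98.4) and SLC3A2 (90.5). In MDA-MB-468 control cells SLC7A5 (249.7 CPM per kilobase) and SLC1A5 (216) again led, followed by the enzymes ASS1 (199), PSAT1 (147) and PSPH (109). These enzymes stood at 13.0, 20.6 and 4.73 CPM per kilobase in HCC1806.

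With sgPACT-2, 1 of 39 members passed in HCC1806, where 0.315% of 23485 genes tested passed (0.277% as higher). In MDA-MB-468 4 of 38 passed, where 1.51% of 21404 genes passed (1.21% as higher). Both results are from edgeR with each line fitted alone and no replicate block, at an adjusted p under 0.05. The member that rose in HCC1806 was SLC43A2, a carrier of large neutral amino acids. Those that rose in MDA-MB-468 were CTH, which makes cysteine from cystathionine, the cystine carrier SLC7A11, its heavy chain SLC3A2, and SLC43A1, a relative of SLC43A2. In bulk libraries a change in every cell and a change in the share of cells that express a gene cannot be told apart. The member median log2 change was 0.05 in HCC1806 (all genes 0.02) and 0.01 in MDA-MB-468 (all genes -0.0040). At an unadjusted p under 0.05, 8 members passed in HCC1806 (11.5% of all genes) and 7 in MDA-MB-468 (10.6%). ALDH1L1 was the member not tested in MDA-MB-468, with 10, 0 and 0 counts in control libraries and 1, 3 and 3 with sgPACT-2.

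In HCC1806, the deviations of libraries with the same replicate number correlated positively for all 3 numbers, although control replicate 2 also correlated with sgPACT-2 replicate 3 (0.351). A fit with the replicate number as a block called 668 genes, 2.84% of those tested. It called 5 members: SLC43A2, ASNS, GPT2 and CTH rose (1.37% of all genes) and SLC7A5 fell (1.48%). The model of all 12 libraries, in which both lines share 1 estimate of the spread, called 2.49% of genes and 4 members in HCC1806 (these without CTH). It called 0.170% of genes and 1 member, CTH, in MDA-MB-468, where the replicate block called 4.82% of genes and 6 members. The biological coefficient of variation was 0.204 for HCC1806 alone, 0.0936 for MDA-MB-468 alone and 0.171 for all 12 libraries. The shared estimate was thus below the spread of HCC1806 and above that of MDA-MB-468, which limits what calls gained or lost in that model can show. Without HCC1806 sgPACT-2 replicate 1, 428 genes and 4 members passed in HCC1806, the members being SLC43A2, ASNS, GPT2 and SLC7A5. Every other fit that left out 1 HCC1806 library called SLC43A2 only among the members.

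**Figure D2:**
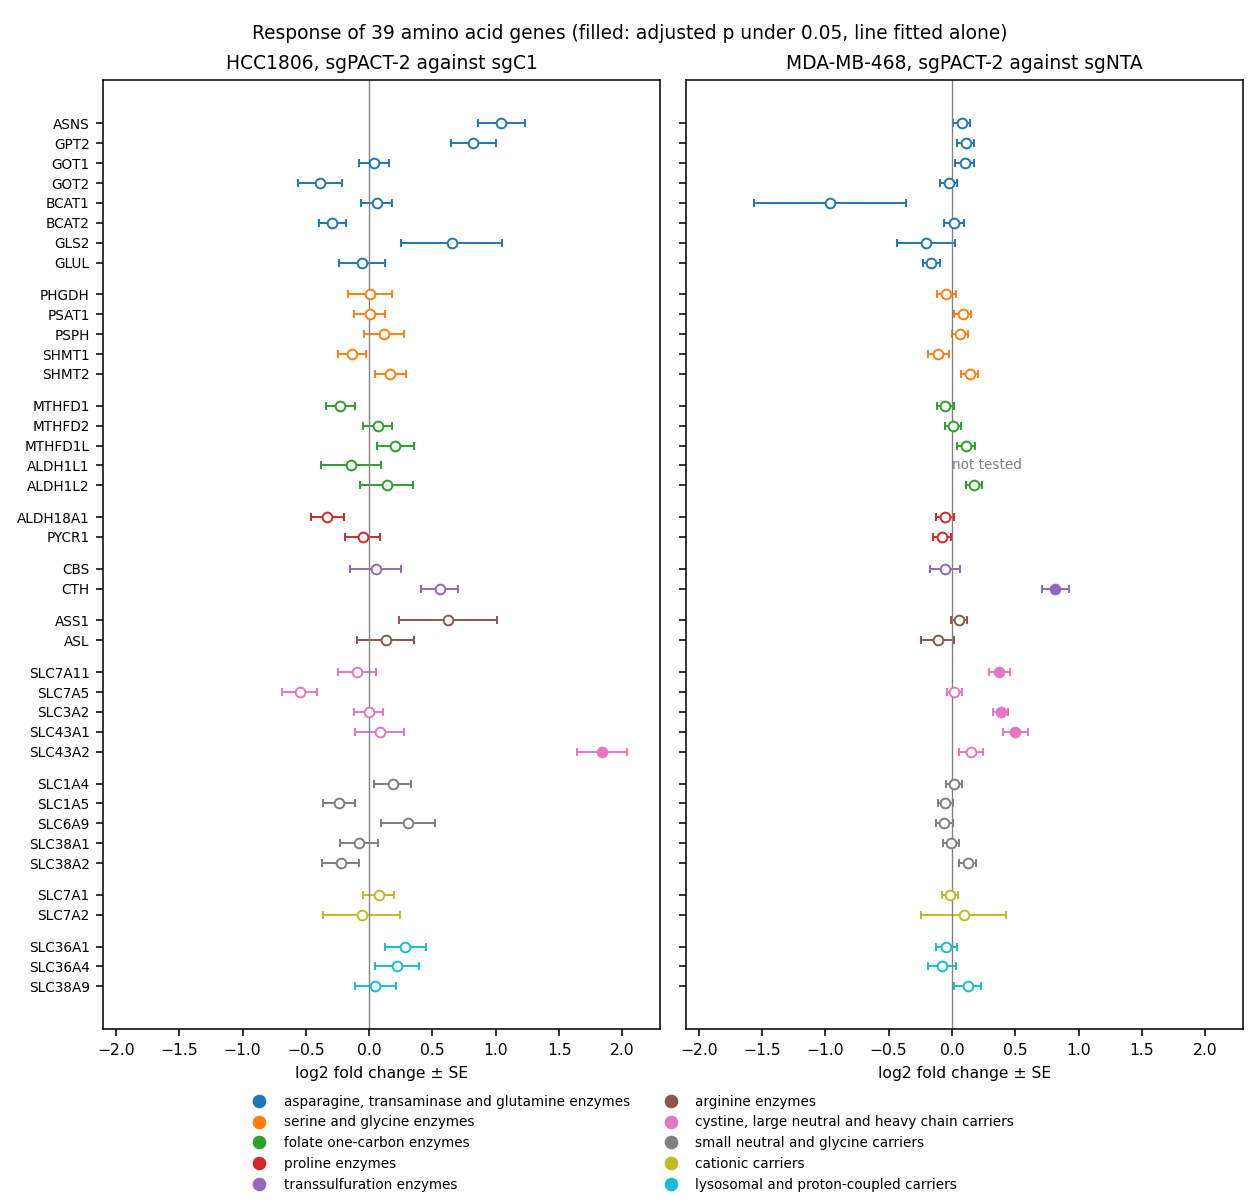
Log2 fold change (sgPACT-2 against control guide) with its SE for the 39 genes in HCC1806 (left) and MDA-MB-468 (right), each line fitted alone in edgeR, coloured by role. Filled points passed an adjusted p under 0.05: SLC43A2 at 1.84 on the left, and CTH (0.82), SLC43A1 (0.50), SLC3A2 (0.38) and SLC7A11 (0.37) on the right.

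CPM of control and sgPACT-2 libraries did not overlap for 10 members in HCC1806 (17.6% of all genes tested) and for 7 in MDA-MB-468 (14.7%). In HCC1806 the 4 higher ones (8.67% of all genes) were ASNS, GPT2, CTH and SLC43A2, and the 6 lower ones (8.95%) BCAT2, SHMT1, MTHFD1, ALDH18A1, SLC7A5 and SLC1A5. In MDA-MB-468 the 6 higher ones (6.79%) were ALDH1L2, CTH, SLC7A11, SLC3A2, SLC43A1 and the lysosomal carrier SLC38A9, and the 1 lower one (7.96%) was the glutamine synthetase gene GLUL. CTH was higher without overlap in both lines.

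**Figure D3:**
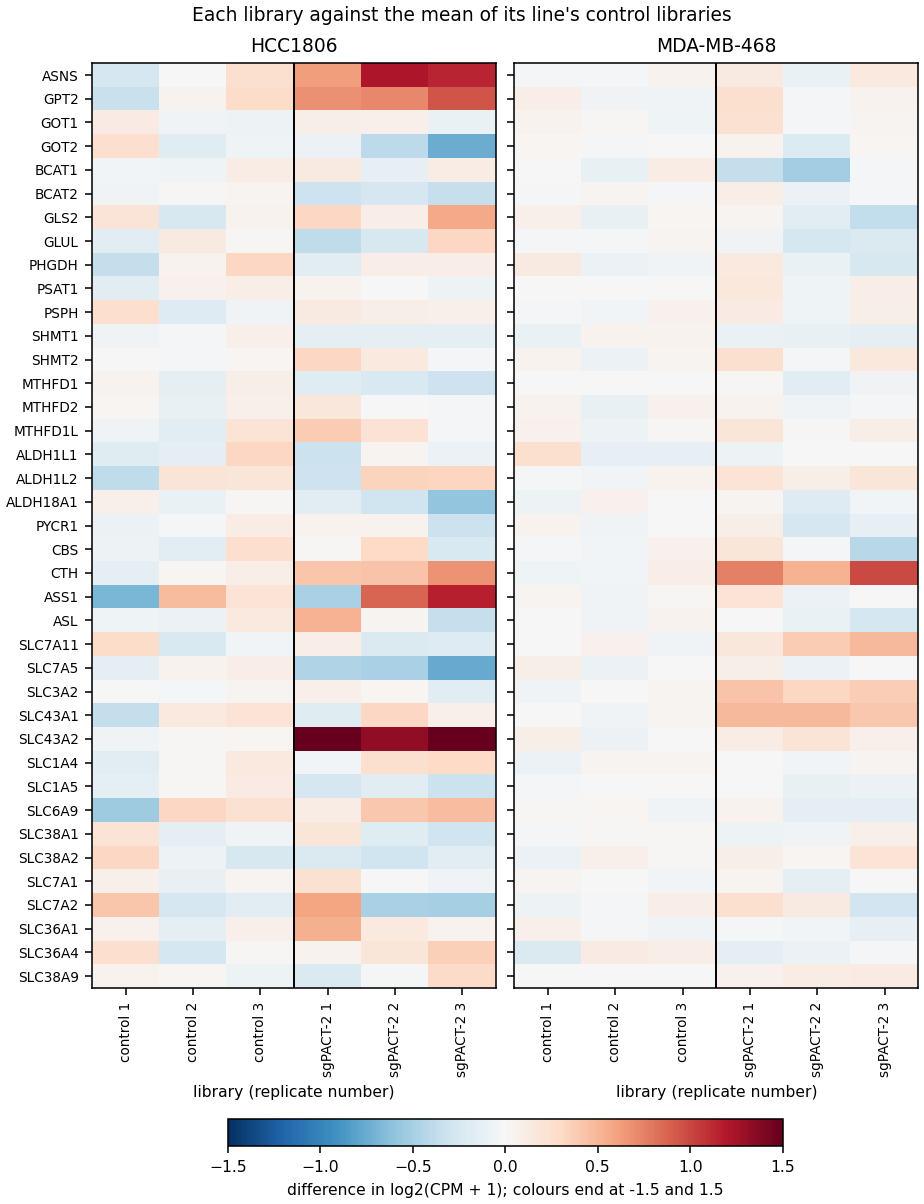
Difference in log2(CPM + 1) between each library and the mean of the 3 control libraries of its line, for the 39 genes in HCC1806 (left) and MDA-MB-468 (right), with a colour scale that ends at -1.5 and 1.5. The rows of SLC43A2, ASNS, GPT2 and, more faintly, CTH are red in all 3 sgPACT-2 libraries of HCC1806. Those of CTH, SLC3A2, SLC43A1 and SLC7A11 are red in all 3 of MDA-MB-468, SLC7A11 only faintly in replicate 1. The ASS1 row varies among HCC1806 libraries of the same group.

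ASNS makes asparagine from aspartate and glutamine, and GPT2, the mitochondrial alanine transaminase, links alanine and glutamate. ASNS (ENSG00000070669, chr7:97852118-97872542, GRCh38, minus strand) had 27.8, 33.3 and 39.3 CPM in HCC1806 control libraries and 51.7, 78.3 and 74.5 CPM with sgPACT-2. All sgPACT-2 libraries were above all controls, at a log2 change of 1.04 (SE 0.19). Its adjusted p was 0.0537 in the line fitted alone and 3.5e-04 with the replicate block (edgeR). Of 6 fits that each left out 1 library, ASNS passed in 1, without sgPACT-2 replicate 1 (adjusted p = 0.00121, edgeR). In the others its adjusted p reached 0.245 (edgeR). In MDA-MB-468 ASNS had 160.3, 160.1 and 170.1 CPM with sgNTA and 179, 153 and 181 CPM with sgPACT-2, which overlap. The MDA-MB-468 control level was 4.88 times that of HCC1806.

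The ASNS promoter carries the classical element that pairs a C/EBP and an ATF factor, and the same letters were searched in the promoter windows of the other members. RefSeq promoter windows (GRCh38.p14, 250 bases before to 50 bases after a start) were at hand for 31 of the 39 genes. The letters TGATGNAA, on either strand, lay in a window of 9 of these 31 genes, a share of 29%, and in 4.46% of all 27305 genes with a window. The letters TGACNNNGC, the core of the antioxidant response element, lay in 7 of the 31, a share of 22.6%, and in 16.1% of all genes. The sites of ASNS, SLC3A2 and SLC7A5 are shown because these genes passed in at least 1 fit of sgPACT-2 against control, and those of SLC1A4 and SLC7A1 because they hold the same letters. Each line is the gene's own strand from 5′ to 3′ with the match in capitals.
ASNS, chr7:97872458-97872487: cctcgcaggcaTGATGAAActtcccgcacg
SLC3A2, chr11:62881719-62881748: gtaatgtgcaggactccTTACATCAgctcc
SLC1A4, chr2:64989381-64989410: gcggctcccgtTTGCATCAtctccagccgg
SLC7A1, chr13:29595663-29595692: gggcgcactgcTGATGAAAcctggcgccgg
SLC3A2, antioxidant core, chr11:62881652-62881681: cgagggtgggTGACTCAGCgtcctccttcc
SLC7A5, antioxidant core, chr16:87869490-87869519: gcggggttccTGACGCAGCtgcgggcggcg
Positions count from the RefSeq start whose window holds the match, which for these genes can be an alternative start inside the GENCODE gene, as for SLC3A2, where the site lies in 1 of 3 windows. The first base of the ASNS match lies at position -68 from its start, that of SLC3A2 at 38 and that of SLC1A4 at -7, and the matches of SLC3A2 and SLC1A4 are read on the opposite strand. Members with the C/EBP-ATF letters did not move alike: ASNS had a log2 change of 1.04 in HCC1806, SLC1A4 of 0.19 and SLC7A1 of 0.08, while in MDA-MB-468 SLC3A2 had 0.38, SLC1A4 0.01 and SLC7A1 -0.02. The other members with these letters were GOT1, BCAT1, MTHFD1L, SLC1A5 and SLC38A1. A match is a description of the letters, not of binding.

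GPT2 (ENSG00000166123, chr16:46884378-46931297, plus strand) had 11.6, 15.5 and 18.3 CPM in HCC1806 control libraries and 24.5, 25.3 and 29.6 CPM with sgPACT-2. The groups did not overlap, and the log2 change was 0.82 (SE 0.18). Its adjusted p was 0.111 in the line alone and 0.00549 with the replicate block (edgeR). Of 6 fits that each left out 1 library, GPT2 passed in 1, without sgPACT-2 replicate 1 (adjusted p = 0.0314, edgeR). In the others its adjusted p reached 0.349 (edgeR). MDA-MB-468 had far more GPT2 RNA: 329, 296 and 296 CPM with sgNTA, 20.3 times the HCC1806 control mean, and 363, 303 and 318 CPM with sgPACT-2. The log2 change there was 0.11 (adjusted p = 0.616, edgeR).

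The aspartate transaminases, branched-chain transaminases and glutamine enzymes gave no call in either line fitted alone, at adjusted p of 0.308 or more in MDA-MB-468. GOT2, the mitochondrial aspartate transaminase, had the highest level per kilobase among the asparagine, transaminase and glutamine enzymes in both lines. It had 124, 91.2 and 98.9 CPM in HCC1806 controls and 97.2, 78.6 and 61.4 CPM with sgPACT-2, and 219, 210.5 and 212 against 221, 185 and 218 CPM in MDA-MB-468, with overlap in both lines. Its cytosolic partner GOT1 had log2 changes of 0.04 and 0.10 in HCC1806 and MDA-MB-468. BCAT1, the cytosolic enzyme that starts the breakdown of leucine, isoleucine and valine, was abundant in HCC1806 and near 0 in MDA-MB-468: 107, 105 and 118 CPM in its controls against 0.557, 0.456 and 0.699 CPM in MDA-MB-468 controls. The mitochondrial BCAT2 was present in both lines and lower with sgPACT-2 in HCC1806 without overlap (log2 change -0.29, adjusted p = 0.354, edgeR). GLS2, a glutaminase, was low in both lines, at 0.880 CPM on average in HCC1806 and 2.84 CPM in MDA-MB-468 controls. The opposite-strand gene SPRYD4 overlaps 3193 of its 4141 exon bases and held 773% as many counts, so the level of GLS2 is uncertain. GLUL, which makes glutamine, had a log2 change of -0.16 in MDA-MB-468 with adjusted p = 0.308 (edgeR), its sgPACT-2 libraries all below its controls.

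The serine and glycine enzymes differed between the lines, and their groups with and without sgPACT-2 lay close together. PHGDH, PSAT1 and PSPH are the successive enzymes from 3-phosphoglycerate to serine, and SHMT2 and SHMT1 split serine into glycine and a folate-bound carbon in mitochondria and cytosol. PSAT1 had 40.2, 47.0 and 48.1 CPM in HCC1806 controls and 46.8, 45.0 and 42.6 CPM with sgPACT-2. MDA-MB-468 had 323, 319.8 and 324 CPM with sgNTA and 360.2, 308 and 346 CPM with sgPACT-2. The groups overlapped in both lines, while every MDA-MB-468 library lay far above every HCC1806 library. The control mean in MDA-MB-468 was 23.0 times that of HCC1806 for PSPH, 7.14 times for PSAT1 and 6.19 times for PHGDH, and with sgPACT-2 these ratios were 22.3, 7.54 and 5.98. SHMT2 was also higher in MDA-MB-468 (log2 difference 1.36) and SHMT1 lower (-1.01). SHMT2 had 107, 105 and 109 CPM in HCC1806 controls and 134, 118 and 106 CPM with sgPACT-2, and 285, 259 and 284 against 325, 271 and 307 CPM in MDA-MB-468. Across the 5 enzymes the log2 changes with sgPACT-2 ran from -0.13 (SHMT1) to 0.17 (SHMT2) in HCC1806, with SE of 0.11 to 0.17, and from -0.11 (SHMT1) to 0.14 (SHMT2) in MDA-MB-468, with SE of 0.06 to 0.08. Among them the adjusted p was at least 0.658 (HCC1806) or 0.458 (MDA-MB-468, edgeR). SHMT1 shares 196 exon bases with SMCR8 on the opposite strand, which held 185% as many counts, so SHMT1 is uncertain as well. A pseudogene, PSPHP1, held 8.22% as many counts as PSPH, so reads of PSPH may be split between them.

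The folate enzymes, which pass that carbon on to purines, thymidylate and formate, likewise gave no call in either line fitted alone. MTHFD2, the mitochondrial methylene-tetrahydrofolate dehydrogenase and a known ATF4 target, had 64.3, 58.4 and 66.8 CPM in HCC1806 controls and 71.0, 63.5 and 62.0 CPM with sgPACT-2. The MDA-MB-468 libraries had 199, 177 and 201 CPM with sgNTA and 200.1, 185 and 190.1 CPM with sgPACT-2. Its groups overlapped in both lines, with log2 changes of 0.07 and 0.01. The cytosolic MTHFD1 had a log2 change of -0.23 in HCC1806 and mitochondrial MTHFD1L one of 0.21. ALDH1L2, the mitochondrial formyl-tetrahydrofolate dehydrogenase, had 134, 131 and 141 CPM with sgNTA and 157, 144 and 153 CPM with sgPACT-2 in MDA-MB-468, a log2 change of 0.17 (adjusted p = 0.261, edgeR) without overlap. The cytosolic ALDH1L1 was at 5.08 CPM on average in HCC1806 controls and at 0.0929 CPM in those of MDA-MB-468. ALDH1L2 shares 145 exon bases with C12orf45 on the opposite strand, which held 38.3% as many counts. MTHFD1 shares 178 exon bases with ZBTB25 on the opposite strand (20.5%), so the levels of ALDH1L2 and MTHFD1 are uncertain.

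In proline synthesis, ALDH18A1 makes the glutamate semialdehyde precursor and PYCR1 reduces it to proline in mitochondria. ALDH18A1 had 144, 128 and 139 CPM in HCC1806 controls and 122, 111 and 90.1 CPM with sgPACT-2. These groups did not overlap, but the log2 change of -0.33 had an adjusted p of 0.375 (edgeR). Its MDA-MB-468 levels were 104, 115 and 110.1 against 113, 95.3 and 106 CPM. PYCR1 had 56.0, 58.5 and 64.3 against 61.7, 61.9 and 47.3 CPM in HCC1806, and 130.0, 121 and 125 against 133, 105 and 115 CPM in MDA-MB-468. Its level was higher in MDA-MB-468 controls by 1.07 on the log2 scale, and sgPACT-2 libraries overlapped controls in both lines.

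CTH, the second transsulfuration enzyme, was the member with the smallest adjusted p in MDA-MB-468. CTH (ENSG00000116761, chr1:70411218-70439851, plus strand) had 15.4, 15.6 and 17.4 CPM with sgNTA and 27.9, 23.6 and 33.1 CPM with sgPACT-2 in that line. Every sgPACT-2 library was above every control, and CTH rose by 0.82 on the log2 scale (SE 0.11, adjusted p = 1.2e-05, edgeR). It passed under all alternatives run in MDA-MB-468, up to an adjusted p of 0.0184 in the model of all 12 libraries. In HCC1806 CTH started at a similar level, 13.3, 15.0 and 15.8 CPM, and stood at 19.8, 20.1 and 24.0 CPM with sgPACT-2, again without overlap. The log2 change of 0.56 (SE 0.15) had an adjusted p of 0.189 in the line alone and 0.0398 with the replicate block (edgeR). The difference between the 2 responses was 0.26 (adjusted p = 0.782, edgeR). The 100 bases before its outermost annotated start, printed because CTH passed in MDA-MB-468 and neither motif matched there, are the following.
CTH, chr1:70411118-70411217, plus strand: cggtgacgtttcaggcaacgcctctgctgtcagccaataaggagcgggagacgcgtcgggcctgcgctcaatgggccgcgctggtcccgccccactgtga
The enzyme before it in the pathway, CBS, had log2 changes of 0.05 (HCC1806) and -0.06 (MDA-MB-468). A near-identical copy, CBSL, held 76.2% as many counts as CBS, so the level of CBS is uncertain.

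ASS1 and ASL build arginine from citrulline and aspartate. ASS1 had 626, 585 and 613 CPM in MDA-MB-468 controls and 699.9, 570.3 and 608 CPM with sgPACT-2, which overlap. In HCC1806 it had 22.8, 52.7 and 43.5 CPM in controls and 26.6, 69.3 and 85.3 CPM with sgPACT-2. There replicate 1 was the lowest library of both groups, and the groups overlapped. The log2 change of 0.62 had the wide SE of 0.39 in the line alone (adjusted p = 0.605, edgeR). With the replicate block the log2 change of ASS1 was 0.55 (SE 0.14), just short of passing (adjusted p = 0.0515, edgeR). ASL stayed between 7.51 and 15.6 CPM in all 12 libraries. Its pseudogene ASLP1 held 10.9% as many counts, so ASL is uncertain too.

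The carriers of large neutral amino acids and cystine are 5 members here, counting SLC3A2, the heavy chain of SLC7A5 and SLC7A11. Of these 5, 1 passed in HCC1806 fitted alone (0.315% of all genes) and 3 in MDA-MB-468 (1.51%). The members were chosen with earlier results of these data known. SLC43A2 (ENSG00000167703, chr17:1569267-1628886, minus strand), which carries leucine, isoleucine, methionine and phenylalanine without a heavy chain, had 2.5, 2.69 and 2.71 CPM in HCC1806 controls. With sgPACT-2 it had 9.60, 8.15 and 10.2 CPM. The groups were far apart relative to their spread, and SLC43A2 rose by 1.84 on the log2 scale, or 3.58-fold (SE 0.20, adjusted p = 0.00311, edgeR). It passed under all 13 alternatives run in HCC1806, with an adjusted p of at most 0.0382. In MDA-MB-468 it had 22.9, 20.2 and 21.6 CPM with sgNTA and 23.3, 24.8 and 22.7 CPM with sgPACT-2, a log2 change of 0.15 (adjusted p = 0.629, edgeR). The HCC1806 control level was thus the low one, and the MDA-MB-468 to HCC1806 ratio of means was 8.18 with control guides and 2.53 with sgPACT-2. The 100 bases before its outermost start, shown because it was the member called in HCC1806, held neither motif.
SLC43A2, chr17:1628887-1628986, minus strand: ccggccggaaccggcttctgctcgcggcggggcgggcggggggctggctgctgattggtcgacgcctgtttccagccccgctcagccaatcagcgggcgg

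SLC43A1 (ENSG00000149150, chr11:57484534-57515786, minus strand), a carrier of the same family, passed in the other line. Its MDA-MB-468 libraries had 14, 13.4 and 14.3 CPM with sgNTA and 19.8, 19.8 and 18.7 CPM with sgPACT-2, without overlap, and rose by 0.50 on the log2 scale (SE 0.10, adjusted p = 0.00432, edgeR). In HCC1806 it had 18.0, 25.9 and 27.0 CPM in controls and 20.4, 29.2 and 24.6 CPM with sgPACT-2, which overlap. The difference of these responses, 0.42, did not pass (adjusted p = 0.628, edgeR). In the model of all 12 libraries its adjusted p in MDA-MB-468 was 0.537.

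SLC7A11 and SLC3A2 together form the cystine and glutamate exchanger. SLC3A2 (ENSG00000168003, chr11:62856102-62888875, plus strand) had 348, 363 and 369 CPM with sgNTA and 484, 446 and 464 CPM with sgPACT-2 in MDA-MB-468. All sgPACT-2 libraries were above all controls, and it rose by 0.38 on the log2 scale, or 1.31-fold (SE 0.06, adjusted p = 2.6e-04, edgeR). In HCC1806 it had 466, 459 and 479.9 CPM in controls and 492, 476 and 417 CPM with sgPACT-2, which overlap (adjusted p = 0.994, edgeR). SLC7A11 (ENSG00000151012, chr4:138164097-138242349, minus strand) had 56.1, 58.6 and 54.0 CPM with sgNTA and 63.1, 73.7 and 79.2 CPM with sgPACT-2 in MDA-MB-468. It rose by 0.37 on the log2 scale (SE 0.08, adjusted p = 0.0114, edgeR), a call that was lost without sgNTA replicate 3 (0.0967), sgPACT-2 replicate 2 (0.0917) or sgPACT-2 replicate 3 (0.121). In the model of all 12 libraries neither gene passed in MDA-MB-468 (adjusted p = 0.195 for SLC3A2 and 0.729 for SLC7A11, edgeR). HCC1806 held 5.59 times as much SLC7A11 RNA as MDA-MB-468 in controls, at 376, 264 and 301 CPM, and had 333, 266 and 271 CPM with sgPACT-2, with overlap. An antisense gene, SLC7A11-AS1, overlaps SLC7A11 and held 6.31% as many counts, and without a stated strand setting their reads cannot be told apart. The differences between the lines' responses, 0.39 for SLC3A2 and 0.47 for SLC7A11, did not pass (adjusted p = 0.366 and 0.484, edgeR).

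SLC7A5 (ENSG00000103257, chr16:87830023-87869488, minus strand), the light chain that pairs with SLC3A2 for leucine uptake, was the most abundant member per kilobase in both lines. It had 2188, 2499 and 2587 CPM in HCC1806 controls and 1763, 1728 and 1428 CPM with sgPACT-2. Every sgPACT-2 library was below every control, at a log2 change of -0.55 (SE 0.13). The adjusted p was 0.164 in the line alone and 0.0287 with the replicate block (edgeR). Of 6 fits that each left out 1 library, SLC7A5 passed in 1, without sgPACT-2 replicate 1 (adjusted p = 0.0457, edgeR). In the others its adjusted p reached 0.442 (edgeR). In MDA-MB-468 it had 1254, 1115 and 1186 CPM with sgNTA and 1262, 1113 and 1192 CPM with sgPACT-2, a log2 change of 0.02. The ratio of its mean in MDA-MB-468 to that in HCC1806 was 0.489 in controls and 0.725 with sgPACT-2.

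**Figure D4:**
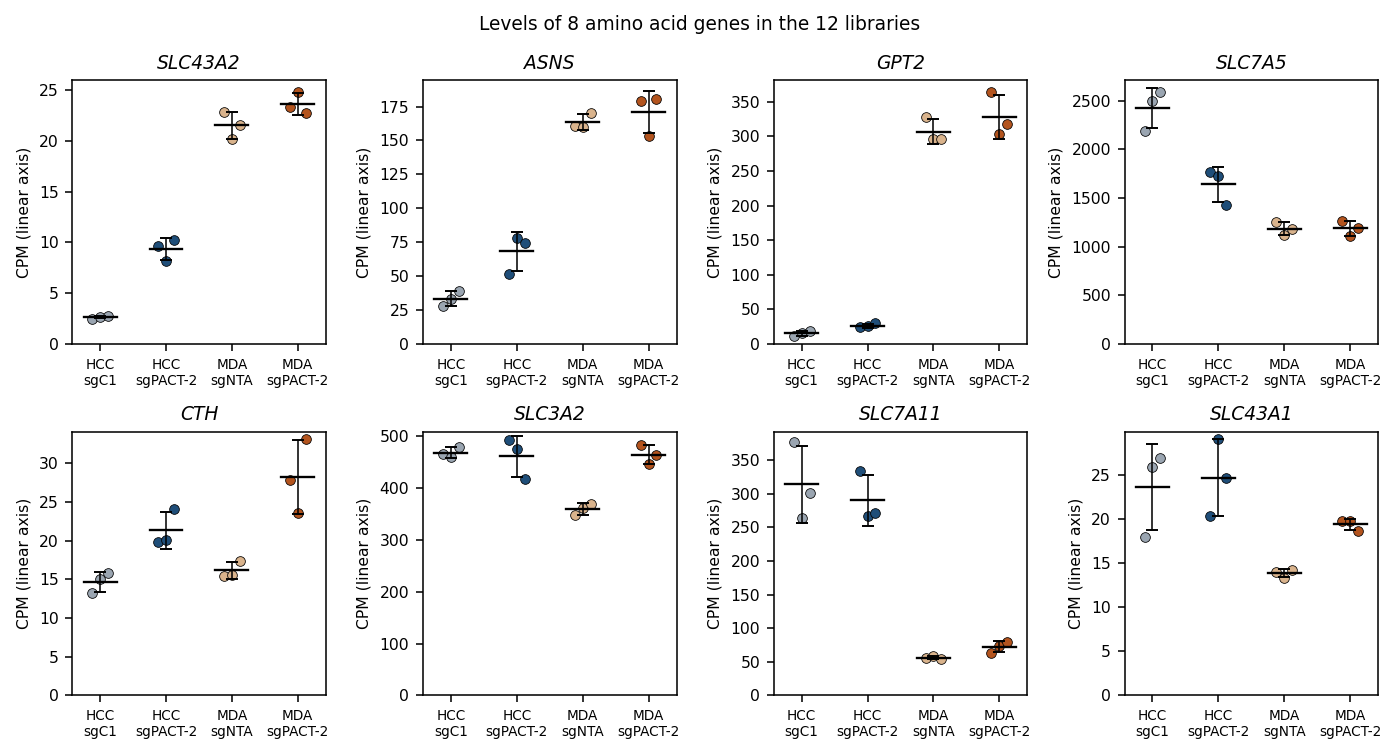
CPM (linear axes from 0) of 8 genes in the 12 libraries, in the order HCC1806 sgC1, HCC1806 sgPACT-2, MDA-MB-468 sgNTA, MDA-MB-468 sgPACT-2 (HCC and MDA on the axes), with points for libraries, a line at the mean and bars of 1 SD. SLC43A2 stands at 8.15 to 10.2 CPM with sgPACT-2 against 2.5 to 2.71 CPM in HCC1806 controls, and CTH is above its controls in both lines.

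The carriers of small neutral amino acids gave no call in either line fitted alone (lowest adjusted p = 0.510 in HCC1806 and 0.535 in MDA-MB-468, edgeR). SLC1A5, the main glutamine carrier of many tumour cells, had 457, 514 and 553 CPM in HCC1806 controls and 424, 449.6 and 405 CPM with sgPACT-2. These groups did not overlap, with a log2 change of -0.24. MDA-MB-468 libraries had 711, 724 and 721 against 718, 663 and 676 CPM, which overlap. SLC1A4, its relative for serine, alanine and cysteine, and the glycine carrier SLC6A9 were higher in MDA-MB-468 controls by 2.56 and 3.06 on the log2 scale. SLC6A9 shares 404 exon bases with CCDC24 on the opposite strand, which held 10.1% as many counts. The sodium-coupled glutamine carriers SLC38A1 and SLC38A2 had log2 changes between -0.23 and 0.12 across the lines.

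Of the carriers of lysine and arginine, SLC7A1 had 584, 512 and 573 against 650.3, 557 and 535 CPM in HCC1806, and 421, 410.1 and 396 against 421, 372 and 408 CPM in MDA-MB-468. The groups overlapped in both lines. SLC7A2, the other one, was at 15.7 CPM on average in HCC1806 controls and at 1.23 CPM in those of MDA-MB-468. Among the lysosomal and proton-coupled carriers, SLC36A1 had 16.7, 14.4 and 16.9 against 23.6, 17.7 and 16.6 CPM in HCC1806 and 38.3, 35.6 and 34.8 against 35.7, 35.2 and 33.2 CPM in MDA-MB-468. SLC36A4 and SLC38A9, the latter a sensor of lysosomal arginine for mTORC1, had log2 changes of 0.22 and 0.05 in HCC1806 and of -0.08 and 0.12 in MDA-MB-468.

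The difference between the responses of the lines, tested in the model of all 12 libraries, passed for 1 of 39 members, where 0.122% of 27029 genes passed. That member was SLC43A2, at -1.69 on the log2 scale (MDA-MB-468 response minus HCC1806 response, adjusted p = 0.00169, edgeR). ASNS (-0.96, adjusted p = 0.0998), GPT2 (-0.71, 0.228) and SLC7A5 (0.57, 0.198) did not pass. With the replicate number as a block within each line these 3 passed, at adjusted p of 0.00101, 0.0104 and 0.0329 (edgeR), where 1.00% of all genes passed. With a weight per line none of these 3 passed (adjusted p = 0.0973, 0.221 and 0.119, limma voom). Of 19 alternatives run for the difference, ASNS passed in 4, GPT2 in 2 and SLC7A5 in 3. The 38 members tested in both lines had the same sign of response in 23 cases, or 60.5%, against 56.5% of 18885 genes tested in both.

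Other genes of amino acid metabolism and transport were listed as well. Of 85 further listed genes, 70 were tested in each line, with a median log2 change of -0.05 in both. In HCC1806 1 of the 70 rose (0.277% of all genes): SLC36A2, a proton-coupled glycine and proline carrier, with 0, 0 and 1 counts in controls and 11, 24 and 28 counts with sgPACT-2. Against a floor of 3 counts per control library it was at least 6.50-fold higher (adjusted p = 0.0344, edgeR). In MDA-MB-468 1 of the 70 passed (1.51% of all genes) and fell: SLC1A2, a glutamate carrier, with 31.5, 37.1 and 40.7 CPM with sgNTA and 20.9, 27.0 and 27.7 CPM with sgPACT-2, a log2 change of -0.52 (adjusted p = 0.00585, edgeR).

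A list of 16 stress response genes holds the factors and kinases upstream of these genes, the targets and feedback genes of ATF4, and the targeted gene PRKRA. It was chosen with earlier results of these data known, so its counts beside the shares of all genes are a description and not a test. In HCC1806 5 of the 16 rose (0.277% of all genes) and 1, PRKRA, fell, and in MDA-MB-468 8 rose (1.21% of all genes). The replicate block gave 8 that rose in HCC1806 (1.37% of all genes as higher). In MDA-MB-468 it gave 9, where 4.82% of all genes passed in either direction. The model of all 12 libraries gave 7 in HCC1806 and 2 in MDA-MB-468, where 2.49% and 0.170% of all genes passed in either direction. ATF4 RNA had log2 changes of -0.01 and -0.05, and neither it nor the kinase genes EIF2AK2 and EIF2AK4 passed in either line. The 5 genes of the list that rose in both lines fitted alone were ATF3 (log2 change 2.57 in HCC1806 and 1.64 in MDA-MB-468), TRIB3 (1.03 and 0.53), SESN2 (1.23 and 0.51), PPP1R15A (1.39 and 1.22) and CHAC1 (2.03 and 0.39). In the model of all 12 libraries the MDA-MB-468 calls of ATF3 and PPP1R15A held, and those of TRIB3 (adjusted p = 0.0553), SESN2 (0.0848) and CHAC1 (0.975, edgeR) were lost. DDIT3 (adjusted p = 0.0607), CEBPB (0.172), CEBPG (0.239), ATF5 (0.468) and DDIT4 (0.480, edgeR) did not pass in HCC1806 fitted alone, while DDIT3, DDIT4 and CEBPG rose in MDA-MB-468 and CEBPB and ATF5 did not pass there. CHAC1, which degrades glutathione, had 3.17, 4.21 and 7.67 CPM in HCC1806 controls and 18.4, 20.8 and 21.6 CPM with sgPACT-2. The control libraries of MDA-MB-468 already had 21.8, 23.1 and 23.8 CPM of it, and 32.4, 27.6 and 29.3 CPM with sgPACT-2. Its responses differed between the lines by -1.64 (adjusted p = 0.0338, edgeR), and those of PRKRA by 0.87 (0.0198).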

How the data were processed

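Total RNA, treated with DNase and depleted of rRNA, was made into libraries with a NEBNext Ultra II RNA kit, per the labels. The authors deposited whole-number read counts for each Ensembl gene, 1 column a library, not normalized. The submitters' processing notes list Trimmomatic 0.36, STAR 2.5.2b, featureCounts, Subread 1.5.2 and GRCh38; strand setting and annotation release are not given in the sources used here, so overlapping and antisense genes are uncertain. Genes without a name held 0.0284% of counts. Names and coordinates were matched to GENCODE 29 (GRCh38) by Ensembl ID for 56898 of 57500 genes.

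Each line was fitted alone with edgeR 4.0.16 in R 4.3.3 (filterByExpr, TMM, glmQLFit and glmQLFTest, two-sided), because the lines differed in spread. The difference of responses and the comparison of control lines came from 1 model of all 12 libraries. Benjamini-Hochberg adjustment covered every gene tested, with 0.05 as threshold. Alternatives were RLE factors, library size only, DESeq2 1.42.0, no filter, a mean of at least 50 counts, the replicate number as a block, the model of all 12 libraries for each line, limma 3.58.1 voom with a weight per line, and leaving out each library. The scripts were tested on simulated data, where the model of all 12 libraries gave a larger share of false calls in HCC1806 than the line fitted alone. The simulated lines were given unequal spreads, so this outcome follows from the setting. No pairing of replicates was simulated, so the simulation cannot judge a fit that leaves pairing out. Deviations from the group means of same-numbered control and sgPACT-2 libraries were correlated over 15918 genes. In HCC1806 they correlated at 0.479, 0.294 and 0.152, taken as paired although 1 pair of unlike numbers reached 0.351. The main fit of HCC1806 nevertheless had no replicate block, so its calls leave this pairing out, and the block was run as an alternative. In MDA-MB-468 they correlated at 0.116, 0.0750 and 0.106, weakly but above every pair of unlike numbers (at most 0.00375). The MDA-MB-468 libraries were not taken as paired. HCC1806 libraries held 18640633 to 24704877 counts, those of MDA-MB-468 34581754 to 44790741. Floors of 3 counts cover counting error only. Figures used matplotlib 3.10.9.

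Values in every library are given for members past the threshold in a line alone, in the model of all 12 libraries or in the difference of responses, and for the member of each role with the highest level per kilobase. The members, lists and motifs were chosen with earlier results of these data known.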

Additional observations from a re-analysis of the deposited data

Results flagged for a closer look

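The response of SLC43A2 to sgPACT-2 differed between the lines by -1.69 on the log2 scale (MDA-MB-468 minus HCC1806, adjusted p = 0.00169, edgeR, model of all 12 libraries), being higher in 3 of 3 sgPACT-2 libraries of HCC1806 than in all of its controls. CHAC1 differed by -1.64 (adjusted p = 0.0338), and PRKRA, the targeted gene, by 0.87 (adjusted p = 0.0198), its RNA being lower in HCC1806 with sgPACT-2. Line and control guide cannot be told apart in these differences.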

How the results depend on the processing

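The number of members called in HCC1806, 1 in the line fitted alone, was 2 with library size only, 4 with DESeq2, 5 with no filter on low counts, 5 with the replicate block and 4 in the model of all 12 libraries, and 1 to 4 without 1 library each. Genes called over the whole table were 74, against 118, 333, 645, 668 and 672 in the same order, 46 with a mean of at least 50 counts, and 18 to 428 without 1 library each. The median member change in HCC1806, 0.05, was 0.17 with library size only, where the median of all genes was 0.12, and 0.016 to 0.10 without 1 library each. In MDA-MB-468, 4 members became 1 in the model of all 12 libraries and 3 to 4 without 1 library each; genes called were 323, against 46 in that model and 1031 with the replicate block. The difference of responses, 1 member, gave 2 with DESeq2, 4 with no filter, 4 with the replicate block and 1 to 3 without 1 library each, with 33 genes against 178, 275 and 271, and 13 with voom. The cause of these shifts was not tested. In MDA-MB-468, where same-numbered libraries correlated only weakly, the replicate block called 6 members, adding ALDH1L2 (adjusted p = 0.0376) and GLUL (0.0412, edgeR). No called member changed sign under any of these alternatives, while some uncalled ones with changes near 0 did. Single members were followed only in comparisons where they passed in at least 1 fit outside the leave-one-out fits. Among these members and outside those fits, 85 values had the same outcome as the main fit, whether called or not called. Another 24 gained a call and 3 lost one. SLC43A2 passed in every fit of HCC1806 and of the difference, CTH in every fit of MDA-MB-468. Depth limits ALDH1L1 and BCAT1 in MDA-MB-468 and SLC36A2 in HCC1806.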
